A study of Mus musculus with 7 samples.

Results

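Cluster 0 is the largest of 6 unsupervised clusters that the authors assigned to cultured adult dentate gyrus neural stem and progenitor cells (NSPCs). Its members were taken from the cluster number at the start of each deposited cell name. They were 3925 of 14912 cells, a share of 26.3% (exact binomial interval 25.6 to 27.0, counting error only), and no barcode occurred more than once. All cells came from 1 droplet library made from equal numbers of cells of 3 C57Bl6J cultures, 2 female and 1 male, started from mice aged 6 to 9 weeks and kept at passages 6 to 15 on poly-d-lysine and laminin. The culture medium held epidermal growth factor and fibroblast growth factor 2, each at 20 ng/ml, and no vitamin A in its B27 supplement. Bulk libraries of 4 such cultures (F1, F2, M1 and M2, from mice aged 6 to 8 weeks) and of whole dentate gyrus (DG) of 2 C57Bl6J mice aged 7 to 9 weeks (F1 and M2) gave levels in samples that played no part in the clustering. Cluster names do not mark the culture of origin, so the single-cell values are 1 sample with no replicate.

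NSPCs of the adult hippocampus move between a cycling state, in which they copy DNA and divide, and a resting state held by low growth factor signalling and by inhibitors of cell cycle entry. Members of the Mxd family pair with Max and oppose the growth program driven by Myc, whereas D cyclins respond to growth factors and open the way into S phase. Thrsp (Spot14) is a regulator of lipid synthesis that has been used as a mark of slowly dividing stem cells in the adult hippocampus.

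Cells of cluster 0 had few transcripts of the cell cycle and more of a small set of genes, most of which belonged to no list described here. Apoe and Mxd4 stood 2.67-fold above their level in all other cells, S100b 2.16-fold and Thrsp 1.93-fold. Mki67, which marks dividing cells, was 15.1-fold lower, and Top2a, the topoisomerase of chromosome condensation, was 10.00-fold lower. Levels are counts of UMIs (unique transcript molecules) per 1000000 UMIs of the population (CPM), and the ratio of the levels has an exact counting interval. Since the clusters were made from these same genes, ratios between clusters are given as a description with no test. A gene was called higher or lower at a ratio of 1.5 or more in either direction, where it reached 50 CPM in the higher population. Of 3001 genes at that minimum, 38 were higher (1.27%), 218 were lower (7.26%) and 2745 (91.5%) lay within 1.5-fold. The median log2 ratio of the 3001 genes was -0.02. Past 2-fold there were 3 higher and 119 lower genes, and past 4-fold 53 lower genes. Just inside the limit on the higher side were Atp1b2 (1.501), Cpe and Prmt2 (both 1.508), and just outside were Haghl (1.499), Dner and S100a11 (both 1.490).

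**Figure D1:**
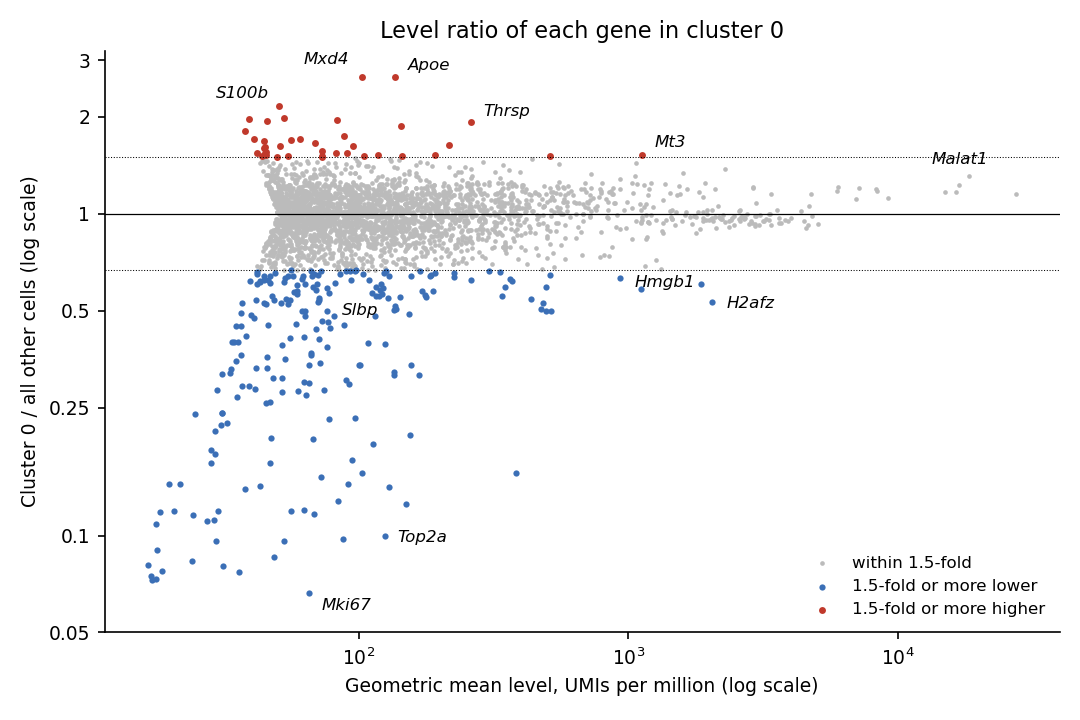
Ratio of the level in cluster 0 to that in all other cells (log scale) against the geometric mean of both levels in CPM (log scale), 1 point for each of 3001 genes, with dotted lines at 1.5-fold in either direction. The 218 lower genes reach down to a ratio of 0.0663 for Mki67, while the 38 higher genes end at 2.67 for Apoe and Mxd4.

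Markers of NSPCs were abundant in cluster 0, and those of other cell types ranged from scarce to well detected. The NSPC markers Nes (678 CPM), Vim (1993), Fabp7 (5121), Slc1a3 (786), Sox2 (161) and Sox9 (160) were all present, and the NSPC marker list summed to 8961 CPM in cluster 0 and between 7555 and 8520 in the other clusters. The 6 astrocyte markers summed to 186 CPM in cluster 0 and to between 79.6 and 158 in the other clusters. Of these, S100b stood at 74.3 CPM, Aldh1l1 at 40.5, Slc1a2 at 38.2 and Gja1 at 32.4, but Gfap was at 0.595 and Aqp4 at 0.198. Short sets of defining markers were low: those of neuroblasts summed to 11.5 CPM, of mature neurons at 9.06, of oligodendrocytes at 3.44, of microglia at 0.463 and of endothelium at 1.52, and none of these sets exceeded 25.6 in any cluster. Wider lists, whose genes progenitors can also express, summed to more than these short sets. The list of neuroblasts and immature neurons was at 1186 CPM in cluster 0 against 1480 in all other cells (Stmn1 323 against 592, Map2 286 against 232). That of mature neurons was at 383.5 against 306.0 (Gria2 190 and Camk2b 71.4 in cluster 0). Myelinating oligodendrocyte genes were at 232.8 against 162.3 (Trf 178 in cluster 0). Dcx, Stmn2, Sox10, Gpr17, Mbp, Mog, Mag, Slc17a7, Cldn5, Cdh5 and 5 of 6 microglial markers were not analysed here, so the sums rest on the other markers and the microglial one on P2ry12. Olig1 (1216) and Olig2 (658) were abundant whereas Pdgfra was at 0.794. Cells of cluster 0 held a median of 3749 UMIs and 1586 genes, against 4188 UMIs and 1768 genes in the other cells. The median share of mitochondrially encoded UMIs was 11.6% in cluster 0 and 10.0% in the others, and 48 of the 64 cells above 20% were in cluster 0. The part of depth and of the mitochondrial share in the ratios was not tested, apart from the alternatives in the closing section.

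All 6 genes that define the cluster had their highest level of the 6 clusters in cluster 0, which was largely set by their choice as its markers. Thrsp was at 361.8 CPM in cluster 0, at 244.1 in cluster 3, 215.1 in cluster 1, 207.6 in cluster 5, 167.3 in cluster 4 and 142.1 in cluster 2. The counting intervals of cluster 1 (206.8 to 223.6) and cluster 5 (194.6 to 221.3) overlapped, so these neighbours in the order could not be separated. Mxd4 was at 167.7 in cluster 0 and 113.1 in cluster 5, and fell to 33.74 in cluster 2, a range of 4.97-fold between cluster 0 and cluster 2. Apoe, a carrier of lipids that glia secrete, was at 222.8 in cluster 0 and between 77.04 and 105.7 in the other 5 clusters. Mt3, a metallothionein of the brain that binds zinc and copper, was at 1387 against 1084 in cluster 3 and 775.9 in cluster 5. Ccnd2, the D cyclin of neural progenitors, and Sox4, a transcription factor of progenitors and young neurons, were highest in cluster 0 but missed the limit. Ccnd2 was at 1280 against 1131 in cluster 5 and 1108 in cluster 3, and its ratio to all other cells was 1.44 (1.41 to 1.46). Sox4 was at 535.1 against 415.9 in cluster 1 and 407.9 in cluster 3, with a ratio of 1.48 (1.44 to 1.52).

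**Figure D2:**
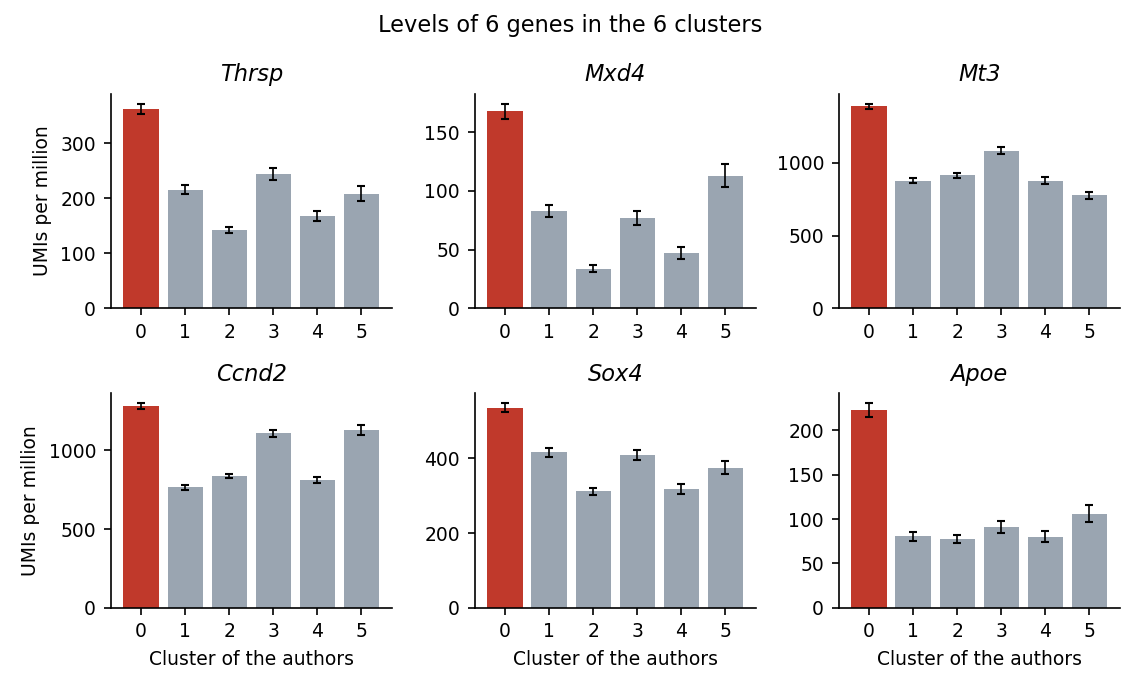
Summed CPM (bars, from 0) of Thrsp, Mxd4, Mt3, Ccnd2, Sox4 and Apoe in each of the 6 clusters, with exact Poisson intervals that cover counting error only. Cluster 0, in red, is highest in every panel, by the largest ratio to the next cluster for Apoe (222.8 against 105.7) and the smallest for Ccnd2 (1280 against 1131).

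The defining genes raised the level of a population rather than marking each of its cells. With every cell thinned to 2000 UMIs, 46.6% of cluster 0 cells held a Thrsp UMI against 28.8% of the other cells, 28.1% against 11.8% held one of Mxd4, and 23.1% against 13% one of Apoe. Mt3 was found in 82.6% against 74.5%, Ccnd2 in 86.6% against 78.5% and Sox4 in 60.1% against 48.8%. A median of 3 of the 6 genes was detected per cell in cluster 0 as in clusters 1, 3 and 5, and all 6 were detected together in 55 cells of cluster 0 (1.40%). The intervals of these shares cover counting error only, and without thinning the shares in cluster 0 were 65.4% for Thrsp and 44.4% for Mxd4.

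The other genes called higher were of several kinds. Mxd4 was joined by Pnrc1, a coactivator of nuclear receptors, at 74.3 against 37.3 CPM (1.99-fold, 1.85 to 2.15), and by Pdcd4, an inhibitor of translation initiation, at 54.8 against 27.9 (1.97-fold, 1.8 to 2.15). Sesn3, a sestrin that restrains mTORC1, was at 79.0 against 46.2 (1.71-fold). Genes of ion and osmolyte handling included Slc5a3, a transporter of myo-inositol, at 116 against 59.3 (1.95-fold) and the potassium channel gene Kcna2 at 63.4 against 32.6 (1.94-fold). Also in this group were the sodium pump subunits Atp1b1 (1.57-fold) and Atp1b2 (1.501-fold) and the bicarbonate transporter Slc4a4 (1.52-fold). Btbd17 was at 197 against 105 (1.87-fold), Vwa1, a matrix protein, at 50.9 against 28.1 (1.81-fold), and Timp3, an inhibitor of matrix metalloproteinases, at 57.7 against 34.3 (1.68-fold). Ramp1, a partner of the receptor for calcitonin gene-related peptide, was at 116 against 66.4 (1.75-fold) and Rab3a, of synaptic vesicle release, at 53.3 against 31.1 (1.71-fold).

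Further genes past the limit, given by name after their values were seen, had ratios from 1.51 to 1.66. They were Dnah8, Aldoc, Dpf3, Wdr6, Msantd4, Lpin1, Tspan7, Selenop, Pcp4l1, Kcnip3, Cfap36, Smox, Kdm5b, Slc22a17, Tril, Trf, Prmt2, Pdlim4 and Cpe. Of all 38 genes, 37 had their highest level in cluster 0, the exception being Pdlim4. The 38 were chosen for a high level in cluster 0, so this count was largely set by that choice. The next level was in cluster 3 for 20 of the 38 and in cluster 5 for 12, and in no case in cluster 2. Only 12 of the 38 belonged to any of the 36 gene lists described here.

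By list, the genes of resting neural stem cells leaned toward cluster 0 by small amounts, as did those of several other lists. All 18 quiescence genes at the level minimum had a ratio above 1, with a median log2 ratio of 0.30 beside -0.02 for all genes. Of the 18, Apoe, Aldoc, Mt3 and Cpe passed 1.5-fold, beside 1.27% of all genes at the minimum. The other members of the list included Dbi, which binds acyl-CoA, at 3201 against 2660 CPM, Ntrk2 at 203 against 140 and Cst3 at 664 against 464. The list summed to 9958 CPM in cluster 0, 8150 in cluster 3 and 7085 in cluster 5. Several defining members were scarce in every cluster: Clu was at 21.1 against 8.12 and Id4 at 3.51 against 1.29, and Hopx was at 7.28 against 6.62. Apoe and Mt3 are also among the genes that define the cluster. The lean was not particular to this list. All genes at the minimum lay above 1 for oligodendrocyte precursors (4, median 0.34), mature neurons (2, 0.39), glycolysis (11, 0.29) and ERK feedback (11, 0.20). Medians were below 0 for chaperones (-0.09) and ribosomal proteins (-0.05). None of 9 radial glia-like stem cell genes passed in either direction, with Nes at a ratio of 1.00 and Vim at 1.17. Astrocyte genes at the minimum numbered 5, of which S100b, Slc4a4 and Atp1b2 were higher, beside 1.27% of all genes. Their median log2 ratio was 0.59. The list summed to 889.8 CPM in cluster 0 and 407.9 in cluster 5.

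Lipid and metal genes showed the same limited reach. Of 13 genes of fatty acid synthesis and binding at the minimum, 12 had a ratio above 1 and only Thrsp passed. Fasn, the fatty acid synthase, was at 107 against 96.8 CPM (1.11-fold), Scd2 at 775 against 617 (1.25-fold) and Fabp5 at 2012 against 1784 (1.13-fold). No gene of cholesterol synthesis passed among 19 (median log2 ratio 0.10), and none of 9 genes of fatty acid oxidation did (0.21). Mt1 stood at 893 against 713 (1.25-fold), below the ratio of 1.52 for Mt3. Of 11 glycolytic genes, all lay above 1 and only Aldoc passed (1.64-fold), with Gapdh at 1.06 and Pkm at 1.25. Of 25 secreted factor and matrix genes at the minimum, 24 lay above 1, Timp3 alone passing, and Igfbp2 (2689 against 1942), a carrier of insulin-like growth factors, and the growth factor gene Ptn (3193 against 2650) were the most abundant.

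Few growth control genes other than Mxd4 passed. Among D cyclins and their partners at the minimum, none passed: Ccnd1 was at 1672 against 1449 (1.15-fold) and Cdk4 at 354 against 449 (0.787). Mxd4 was the only member of its network at the minimum. The other members included Max at 39.4 against 38.4 CPM and Myc at 32.5 against 30.4, while Mxd3, a family member tied to S phase, was at 4.43 against 32.9, below the minimum in both populations. Of 4 inhibitors of cyclin-dependent kinases, Cdkn2c (27.3 against 75.8) and Cdkn2d (21.8 against 54.6) were lower, beside 7.26% of all genes at the minimum. Cdkn1a, which encodes p21, was at 585 against 695 and Cdkn2a at 250 against 209, both within the limit. Cdkn1b (20.7 against 31.7) and Cdkn1c (3.37 against 3.07) did not reach the minimum. None of 11 growth factor receptor and ERK feedback genes passed, with Egfr, the receptor for epidermal growth factor, at 65.5 against 51.5 (1.27-fold) and Dusp6 at 190 against 149 (1.27-fold).

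The genes lower in cluster 0 were led by those of DNA replication and division. All 27 S phase genes at the minimum were lower (median log2 ratio -1.78), as were 40 of 42 genes of G2 and mitosis (-2.79). Clspn, a checkpoint adaptor at replication forks, was at 7.14 against 59.9 CPM, Pclaf, a partner of PCNA, at 52.9 against 423, and Pcna itself at 34.4 against 114. After Mki67 (16.9 against 254), the smallest ratios were those of the linker histone Hist1h1b (4.63 against 63.4, 13.7-fold lower), the kinetochore scaffold Knl1 (4.76 against 65.1, 13.7-fold lower), the spindle pole gene Aspm (4.63 against 62.0, 13.4-fold lower), Hmmr (9.99 against 130) and the spindle motor Kif11 (5.16 against 66.7). Cenpe and Cenpf of the kinetochore, Sgo2a, a protector of chromatid cohesion, the core histone Hist1h2ap, the spindle genes Prc1 and Tpx2 and the cyclin gene Ccna2 were 10.2-fold to 12.4-fold lower. The exceptions in the second list were Arl6ip1 (534 against 636) and Pttg1 (57.5 against 49.7), and its most abundant member, the histone variant gene H2afz, was at 1499 against 2815.

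Genes outside the cycle lists made up most of the lower set by number. The 3 cell cycle and histone lists held 71 of the 218 genes, and 132 belonged to no list. Beside 7.26% of all genes at the minimum, high mobility group genes were lower for 4 of 7, with Hmgb2 at 152 against 973 and Hmgb1 at 738 against 1172. Tubulins were lower for 5 of 8, with Tuba1b at 351 against 704 and Tubb5 at 850 against 1457, while Tuba1a of neurons and glia was at 1526 against 1231. Stmn1, which destabilises microtubules, was at 323 against 592. In the ATF4 response to amino acid shortage 3 of 15 were lower, namely Mthfd2 (32.3 against 82.8), Shmt2 (45.6 against 71.3) and Eif4ebp1 (91.5 against 158). All 13 mitochondrially encoded genes had a ratio above 1 (median log2 ratio 0.23) and none passed, beside the higher mitochondrial share given above. Of 77 ribosomal protein genes, 68 had a ratio below 1 with a median log2 ratio of -0.05 and none passed. None of the most abundant genes outside these families passed. Malat1, a nuclear long noncoding RNA, was at 21075 against 16058 (1.31-fold), with 8666 in cluster 1 and 27603 in cluster 5. Ckb, the brain creatine kinase, was at 9085 against 7617, and Tmsb4x, which binds actin monomers, at 7367 against 6620.

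Because many of the lower genes are known to share promoter elements, their RefSeq promoters (assembly GRCm38.p6) were searched on both strands for CCAAT, the site of the factor NF-Y, and TTTGAA, the cell cycle genes homology region that the DREAM complex occupies in resting cells. The window ran from 250 bases before to 50 after the start site, taking the entry listed first for each gene, and 170 of the 218 lower genes and 33 of the 38 higher genes had one. The 150 bases before the start are shown for lower genes that hold both motifs there, for comparison with the promoters of Mxd4 and Thrsp, with CCAAT or its complement ATTGG and TTTGAA or TTCAAA in capitals.
Mki67: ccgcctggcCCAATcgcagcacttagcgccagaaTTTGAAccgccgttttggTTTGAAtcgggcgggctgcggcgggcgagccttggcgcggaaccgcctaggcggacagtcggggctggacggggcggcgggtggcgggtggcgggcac
Kif11: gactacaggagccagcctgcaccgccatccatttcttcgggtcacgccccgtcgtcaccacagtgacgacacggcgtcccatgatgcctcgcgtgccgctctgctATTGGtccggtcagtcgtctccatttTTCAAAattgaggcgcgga
Top2a: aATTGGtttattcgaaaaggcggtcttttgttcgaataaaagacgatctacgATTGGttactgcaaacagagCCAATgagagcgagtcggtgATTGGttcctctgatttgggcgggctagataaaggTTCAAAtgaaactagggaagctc
Mxd4: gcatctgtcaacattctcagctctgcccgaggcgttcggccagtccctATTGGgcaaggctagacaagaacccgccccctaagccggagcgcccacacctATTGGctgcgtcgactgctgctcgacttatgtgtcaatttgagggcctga
Thrsp: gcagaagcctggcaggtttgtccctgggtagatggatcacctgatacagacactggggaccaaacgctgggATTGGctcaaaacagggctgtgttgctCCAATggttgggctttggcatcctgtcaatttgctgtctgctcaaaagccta
The Mki67 window lies at chr7:135716380-135716529, Kif11 at chr19:37376232-37376381, Top2a at chr11:99024190-99024339, Mxd4 at chr5:34187711-34187860 and Thrsp at chr7:97417551-97417700. Kif11 is on the plus strand and the others are on the minus strand. Within the longer window both motifs occurred in 42 of 170 promoters of lower genes (24.7%), in 20 of 41 of the genes lower by 4-fold or more (48.8%), in 1 of 33 of the higher genes (3.03%), in 5.97% of the genes at the level minimum and in 7.12% of all 27025 promoters. TTTGAA, with or without CCAAT, was found in 31.2% of the lower genes, 53.7% of those lower by 4-fold or more, 9.09% of the higher genes, 12.0% of the genes at the minimum and 18.1% of all promoters. CCAAT was found in 64.1%, 78.0%, 48.5%, 41.2% and 37.9% of these sets. Mxd4 and Thrsp each held 2 CCAAT motifs in the bases shown and no TTTGAA.

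Letters of other elements were counted in the same windows. The E2F-like sequences TTTGGCGC and GGCGGGAA, the second of which overlaps many GC-rich stretches, were in 2.94% and 10.0% of the lower genes against 1.29% and 4.76% of genes at the minimum, and in 2 (6.06%) and 0 of the 33 higher genes. Letters of the metal response element, TGCACNC and TGCGCNC, were in 9.09% and 24.2% of the higher genes against 11.5% and 31.2% of genes at the minimum. The window of Mt3 held a single match, to TGCACNC, at 27 bases after the start. These matches describe letters in a window.

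Cluster 0 was next to clusters 3 and 5 in its cycle transcripts, and the 3 were told apart by different genes. Over 99 genes of S phase and of G2 and mitosis, thinned cells of cluster 0 held a median of 9 UMIs, with a middle range from 4 at the 10th percentile to 16 at the 90th. The medians were 7 in cluster 5, 17 in cluster 3, 27 in cluster 1, 32 in cluster 2 and 46 in cluster 4. At or below 9 UMIs were 57.7% of cluster 0, 77.1% of cluster 5, 8.06% of cluster 3 and 0.425% of cluster 1 cells, and no cell of clusters 2 or 4. S phase UMIs alone were absent from 22.4% of cluster 0 cells and from 30.1% of cluster 5 cells. Of the 218 genes, 142 had their lowest level in cluster 5 and 71 in cluster 0, so that few cycle transcripts were not particular to cluster 0.

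**Figure D3:**
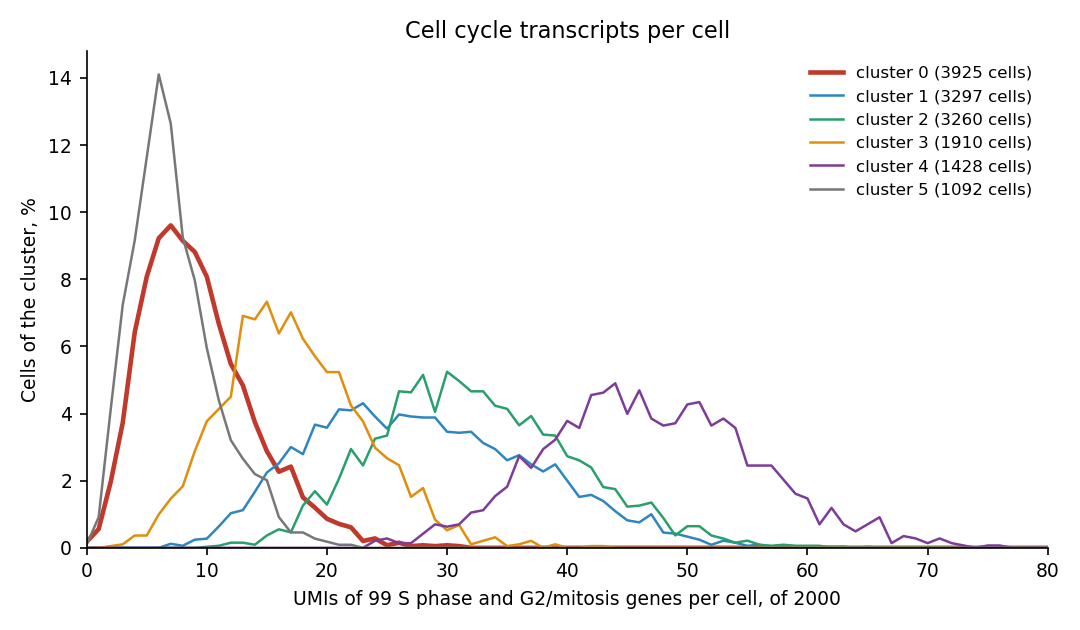
Share of the cells of each cluster (%) by the number of UMIs of 99 S phase and G2/mitosis genes in a cell thinned to 2000 UMIs. The curve of cluster 0 (thick red, 3925 cells, median 9) overlaps that of cluster 5 (grey, median 7) and lies left of clusters 3, 1, 2 and 4.

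Against cluster 3, 19 genes were higher in cluster 0 and 127 lower of 2944 at the minimum. Replication genes were the lowest there, with the uracil glycosylase Ung at 0.0929 and Clspn at 0.0973 of the cluster 3 level, while Apoe (2.45-fold), Dcxr (2.30-fold) and Pnrc1 (2.21-fold) led the higher side. Against cluster 5, 120 were higher and 66 lower of 2809. Kcna2 (3.41-fold), S100b (2.90-fold), Slc22a17 (2.70-fold) and Tspan7 (2.68-fold) were higher in cluster 0, and the stress genes Nupr1 (0.123 of the cluster 5 level), Slc7a11 (0.177), Mthfd2 (0.247) and Atf5 (0.260) were lower. The summed ATF4 list was at 2257 CPM in cluster 0 and 4636 in cluster 5. All 38 higher genes stood above 1 against each of clusters 1 to 4, and 37 did against cluster 5, with medians of 1.46-fold against cluster 3 and 1.65-fold against cluster 5. Of the 38, 14 passed 1.5-fold against cluster 3 and 22 against cluster 5. The 38 were chosen against all other cells together, so ratios above 1 against each cluster were largely set by that choice. Of the 218 lower genes, 74 stood below 1 against cluster 5, and 33 were 1.5-fold or more higher in cluster 0 than in cluster 5.

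An own clustering of the cells (scanpy, Leiden resolution 0.5) placed 3590 of the 3925 cells (91.5%) in 1 cluster of 4664 cells, of which they were 77.0%. Of the 15 nearest neighbours of a cluster 0 cell, 80.1% on average were cluster 0 cells, 8.35% were of cluster 3, 6.65% of cluster 1 and 4.69% of cluster 5, whereas neighbours in clusters 2 and 4 were 0.199% and 0.00170%. Among cells of cluster 3, 18.1% of neighbours were of cluster 0. At resolution 1.0 an own cluster of 2878 cells held 61.1% of cluster 0 and another, of 1196 cells, held 24.1%. A further own cluster, of 563 cells, held 333 cells of cluster 0 (8.48%). In these 333 cells Mt3 was at 505 CPM, against 1444 and 1587 in the 2 larger parts. Ccnd2 was at 796 against 1394 and 1163, and Apoe at 91.6 against 174 and 434. Sox4 was higher, at 831 against 491 and 612, and Thrsp was at 307 against 390 and 323.

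Cells of cluster 0 differed among themselves in the genes that define them. Divided by their cycle UMIs, the 1183 cells with 0 to 6 such UMIs had Apoe at 302 CPM and the 866 cells with 13 to 31 had it at 147. Mt3 went from 1672 to 1091, Ccnd2 from 1504 to 925, Mxd4 from 198 to 124, S100b from 90.9 to 57.2 and Malat1 from 27325 to 13420 over the same ranges. Thrsp (367 and 325), Sox4 (557 and 536) and Aldoc (295 and 257) differed least. These levels are of thinned cells and share the cells and depth of the cycle counts, so they are a description.

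Apoe was the most unevenly spread of the defining genes. Its Fano factor, the variance over the mean of thinned UMIs, was 3.66 beside a median of 1.02 over 2713 genes, and it ranked behind only Malat1 (22.2), the ferritin gene Fth1 (4.93) and the mitochondrial gene mt-Co3 (3.74), and before mt-Atp6 (3.47). The 10% of cluster 0 cells with most Apoe held 70.8% of its UMIs there, and 58 cells had 5 or more against 17 among all other cells. Such a share also rises when a gene is scarce. It was 82.3% for Apoe among the other cells (Fano factor 1.65) and 78.7% for S100b in cluster 0 (1.17). Cells of cluster 0 with an Apoe UMI had 1.84 times the S100b level of those without (1.55 to 2.18), 1.40 times the Aldoc level and 1.38 times that of Mt3, but 1.04 times that of Thrsp (0.956 to 1.14). Cells with a Thrsp UMI had 1.16 times the Mxd4 level (1.04 to 1.30) and 0.976 times the Apoe level (0.888 to 1.07). These splits mix the pooled cultures. Apoe (1.77-fold), S100b (2.00-fold) and Aldoc (1.83-fold) were also higher in cluster 0 cells with Y-linked UMIs than in those with Xist. Mt3 (1.04) and Thrsp (0.835) were not. Joint variation within a culture and differences between cultures cannot be told apart here. Thrsp itself had a Fano factor of 1.36 and Mxd4 one of 1.03.

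The genes whose levels over the 6 clusters were most like those of Thrsp were Msantd4 (Pearson r 0.994), Nudt9 (0.992), Cox8a (0.989), Ndufs6 (0.983) and Pnkd (0.982), over 6 points that share 1 library. Msantd4 ran from 29.6 CPM in cluster 2 to 56.8 in cluster 0, and Cox8a, a subunit of cytochrome oxidase, from 1852 to 2293 in the same clusters.

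Transcripts of the sex chromosomes gave a partial view of the pooled cultures. In cluster 0, 2251 cells (57.4%) held UMIs of Xist but of none of the 4 measured Y-linked genes, 479 (12.2%) the reverse, 95 (2.42%) both and 1100 (28%) neither. Among all cells with only Xist, 26.8% were in cluster 0 (25.9 to 27.8), and among those with only Y-linked UMIs 23.2% were (21.4 to 25.1). Detection was taken without thinning here and depends on depth. The median was 3749 UMIs in cluster 0 and 4188 in the other cells. Within cluster 0 it was 3912 in cells with only Xist and 3663 in those with only Y-linked UMIs. The part of depth in these shares was not tested. All 38 higher genes stood above 1 when cluster 0 was set against the other cells within either kind of cell. The 38 were chosen from cells that include these, so ratios above 1 were largely set by that choice and are a description. Their median ratio was 1.59 among cells with Xist, where 29 passed 1.5-fold, and 1.76 among cells with Y-linked UMIs, where 35 did. Thrsp had ratios of 1.91 and 2.06, Mxd4 of 2.52 and 3.43, Apoe of 2.2 and 3.08, and Mki67 of 0.0689 and 0.0636. Some levels also differed between both kinds of cell inside cluster 0. Apoe was at 302 CPM in cells with Y-linked UMIs and 171 in those with Xist (1.77-fold, 1.60 to 1.96), S100b at 113 and 56.4 (2.00-fold) and Aldoc at 398 and 217 (1.83-fold). Trf (120 and 214) and Slc5a3 (86.9 and 128) went the other way, and Mxd4 (171 and 175) and Mt3 (1414 and 1357) were close. Sex and culture cannot be told apart here, with 1 male culture in the pool.

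**Figure D4:**
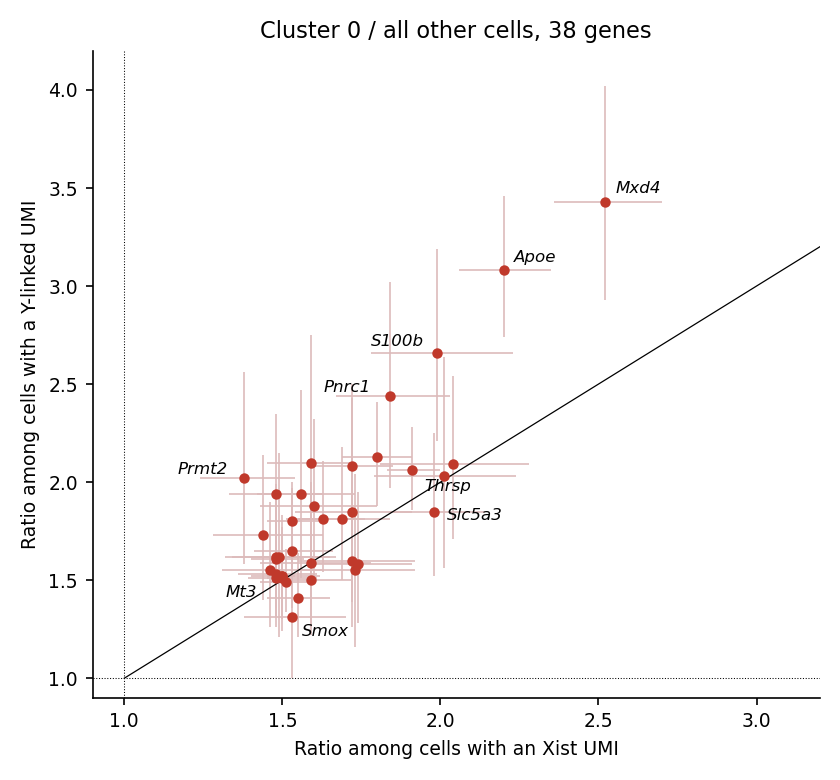
Ratio of cluster 0 to all other cells for the 38 higher genes, among cells with Xist and no Y-linked UMI (x axis) and among cells with a Y-linked UMI and no Xist (y axis), with exact counting intervals and the line of equal ratios. All 38 points lie above 1 on both axes, with Mxd4 at 2.52 and 3.43. The genes were chosen from cells that include these, so ratios above 1 were largely set by that choice.

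In the bulk libraries, the genes high in cluster 0 formed no common pattern between the cultures and whole DG. Of the 38, all tested, 15 were higher in the cultures (39.5%, beside 35.6% of 18088 genes tested), 14 were lower (36.8%, beside 41.7%) and 9 did not pass (edgeR quasi-likelihood test with Benjamini-Hochberg adjustment over all genes). The shares are near those of all genes, and the median log2 difference was -0.11 beside -0.13. Genes low in cluster 0 were mostly higher in the cultures: 177 of 214 tested (82.7%) were higher and 21 (9.81%) lower, with a median log2 difference of 2.29. The p-values here rest on the spread among 4 cultures and 2 mice, and no source says whether the cultures are of separate animals. Library kits differed between cultures and tissue, so kit and group cannot be told apart, and neither can fewer cells of a type and less RNA per cell.

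The 6 defining genes went in different directions. Thrsp was at 99.2, 84.8, 166 and 116 CPM, here reads per 1000000 reads of the library, in cultures F1, F2, M1 and M2, and at 68.4 and 59.0 in whole DG F1 and M2. Every culture lay above both tissue libraries, and the rise of Thrsp passed the test, at 0.87 ± 0.26 (log2, SE; adjusted p = 0.0153, edgeR). The call was lost without whole DG F1 (adjusted p = 0.0538) or M2 (0.109), in a range of 0.00427 to 0.109 over the alternatives. Mxd4 was at 64.3, 56.3, 96.4 and 109 CPM in the cultures and 108 and 129 in whole DG. The groups overlapped in the male culture M2, and the log2 difference of -0.54 did not pass (SE 0.26, edgeR adjusted p = 0.0908). It passed without culture M2 (-0.71, adjusted p = 0.0270), with DESeq2 (-0.64, 0.0434) and with a replicate block (-0.49, 0.0326), in a range of 0.0270 to 0.352. The block compares only the same-named libraries F1 and M2, since cultures F2 and M1 have no counterpart in whole DG. Mt3 was at 99.5, 123, 138 and 136 CPM in the cultures and 235 and 238 in whole DG, all cultures lying below both tissue libraries. Its log2 value was -0.93 ± 0.15 (SE), with an adjusted p of 5.65e-04 in edgeR.

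Ccnd2 was at 1396, 1750, 1515 and 908 CPM in the cultures and 119 and 118 in whole DG. All cultures were far above the tissue, at 3.55 ± 0.29 (log2, SE; adjusted p = 9.84e-06, edgeR). Sox4 was at 30.7, 29.7, 45.1 and 40 CPM in the cultures and 27.9 and 29.7 in whole DG, with overlap at culture F2, and its log2 difference of 0.34 did not pass (SE 0.21, edgeR adjusted p = 0.166). Apoe was at 26.4, 67.8, 72.2 and 117 CPM in the cultures and 1838 and 1778 in whole DG. Every culture lay well below the tissue, at -4.67 ± 0.46 (log2, SE; adjusted p = 2.95e-05, edgeR).

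Other genes high in cluster 0 also divided by direction. S100b was at 6.86, 8.24, 13.6 and 22 CPM in the cultures against 74.7 and 57.9 in whole DG and fell by 2.39 (SE 0.40, edgeR adjusted p = 7.18e-04). Both S100b and Apoe were higher in the male cultures than in the female ones, whereas Aldoc was at 205 and 661 CPM in the female and 272 and 225 in the male cultures, with 2 cultures of each sex and no test. Slc5a3 was at 399, 285, 471 and 126 CPM against 47.1 and 33.4, a rise of 2.99 (SE 0.52, edgeR adjusted p = 8.82e-04). Btbd17, Vwa1, Lpin1, Smox and Tril were likewise higher in all cultures, by log2 differences from 1.47 to 2.44, whereas Atp1b1, Tspan7, Slc4a4, Rab3a, Pnrc1, Kcna2, Sesn3 and Pdcd4 were lower, from -4.03 to -1.61. Of the genes low in cluster 0, Mki67 was at 127, 109, 75.6 and 109 CPM in the cultures and 4.91 and 6.57 in whole DG, and Top2a at 345, 383, 230 and 346 against 2.97 and 3.59. All cultures were above the tissue for both, at 4.19 ± 0.28 for Mki67 (adjusted p = 3.25e-06, edgeR) and 6.63 ± 0.30 for Top2a (adjusted p = 5.13e-07, edgeR), as log2 with SE. For Top2a, Mki67 and Hmmr the male culture M1 had the lowest level of the 4 cultures. Of 41 S phase genes tested, 39 were higher in the cultures, and all 56 tested genes of G2 and mitosis were.

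**Figure D5:**
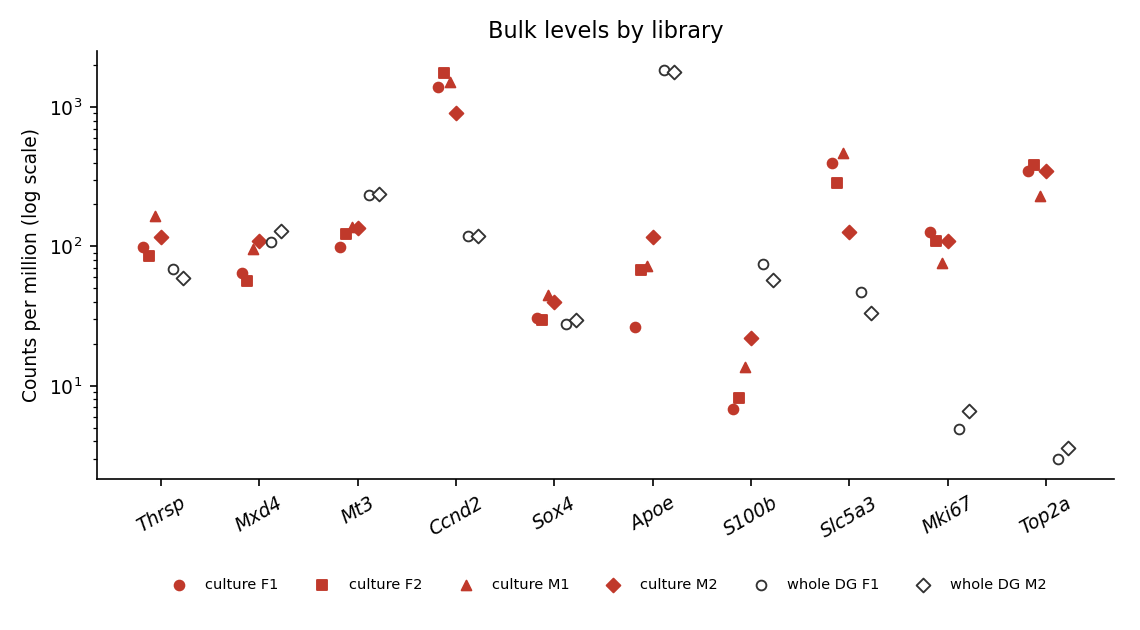
Bulk CPM (log scale) of 10 genes in 4 NSPC culture libraries (filled) and 2 whole DG libraries (open), 1 point for each library. Thrsp, Ccnd2, Slc5a3, Mki67 and Top2a lie above the tissue in every culture, Mt3, Apoe and S100b below it, and Mxd4 and Sox4 overlap.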

How the data were processed

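Single-cell values were deposited by the authors as the natural log of 1 plus UMIs per 10000 UMIs of the cell, with the authors' cluster number in each cell name. The submitters' processing notes name Cell Ranger 3.1.0 and Seurat 3.1.0, while the labels' protocols name other versions of both, and the sources used here do not state a cell filter. UMIs were recovered from these values, and 100% of 26000272 entries lay within 0.01 of a whole number. The 14912 cells held 2001 to 8531 UMIs over 15536 genes. No cell filter was added and no doublet caller was run. Bulk values are raw gene counts deposited by the authors, with totals from 9917697 to 17351636 per library. The submitters' processing notes name HISAT2 2.0.6 and featureCounts, and a human assembly although the symbols are mouse ones. The sources used here do not state whether counting used strand, so genes that overlap others are uncertain, and 682 entries had a repeated name and were not used by name.

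Levels, ratios and exact 95% intervals were computed in Python with scipy 1.17.1, thinning each cell to 2000 UMIs (0 cells left out), and the own clustering took 2000 variable genes, 30 components and 15 neighbours (scanpy 1.11.5, leidenalg 0.10.2). The bulk test was edgeR 4.0.16 (TMM, filterByExpr, robust quasi-likelihood), with DESeq2 1.42.0 as an alternative. The SE given with a bulk log2 difference was derived from the test, as the absolute difference divided by the square root of its F statistic. Both pipelines were tested on simulated data. Intervals cover counting error only. Named are the 6 defining genes, the 15 highest and 15 lowest ratios (without unnamed gene models), the 10 most abundant genes other than ribosomal and mitochondrial ones, the 2 most abundant members of each list, the 5 largest Fano factors and the 5 genes most like Thrsp. Other genes were named after their values were seen, as examples of a list or of genes past the limit. A few genes that meet these rules are not reported here. The genes, lists and rules were chosen with earlier results of these data known.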

Additional observations from a re-analysis of the deposited data

How the results depend on the processing

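The counts of genes higher and lower in cluster 0 (38 and 218) were within 1.5 times of these values with thinned cells (36 and 216), with every cell counted equally (32 and 207), without cells above 20% mitochondrial UMIs (35 and 210), with the other clusters weighted equally (32 and 175), without cluster 5 (43 and 260) and among cells with Xist (34 and 220). With mitochondrial and ribosomal genes left out of the totals, the number of higher genes was 74, which included all 38. The smaller totals raised CPM values against the same minimum, so that 3828 genes reached it, beside 3001. Among cells with a Y-linked UMI 92 genes were higher, of 3085 at the minimum, and 31 of these were among the 38. That setting holds 479 cells of cluster 0, so its ratios carry more counting error. Both splits by sex-linked UMIs were chosen after seeing the data. A level minimum of 20 gave 108 higher and 482 lower genes, and one of 200 gave 6 and 46, with 2 S phase and 14 G2 and mitosis genes left. A fold of 2 gave 3 and 119. The 4 higher quiescence genes became 2 without cluster 5 or among cells with Xist, 8 at a minimum of 20 and 1 at a fold of 2. Of 264 ratios of the 33 named genes recomputed, 222 stayed within their counting interval, 42 moved outside it and none turned. The own cluster holds 31.3% of all cells, and 1 own cluster takes 98.2% of cluster 0 at resolution 0.3, where it holds 7200 cells of which 53.5% are of cluster 0, and 61.1% at 1.0. Without thinning, the shares of cluster 0 cells with a UMI were 65.4% (Thrsp), 44.4% (Mxd4), 92.1% (Mt3), 95.2% (Ccnd2), 79.5% (Sox4) and 33.9% (Apoe), as follows from depth. In bulk, leaving out each library in turn gave 5143 to 6418 genes higher and 6672 to 7620 lower in the cultures, and for the 38 genes 11 to 15 higher and 13 to 17 lower. The replicate names F1 and M2 occur in both groups, but no source says that they pair animals, and same-named libraries deviated together only weakly (r 0.045 and 0.060 across genes). The replicate block gave 6084 higher and 7428 lower. Cultures F2 and M1 have no whole DG library of the same name, so calls under the block rest on the F1 and M2 libraries alone. Timp3 (log2 0.46, edgeR adjusted p = 0.0436) lost its call under the block (0.121) and in most other alternatives (range 0.00875 to 0.218), and Ramp1 (-0.54, adjusted p = 0.219) passed under the block (0.00978) and without culture M1 (0.0149; range 0.00978 to 0.454). The causes were not tested.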

Other observations

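The 2 largest parts of cluster 0 in the finer own clustering differed in sex-linked transcripts, a split that was looked at after its values were seen. At resolution 1.0, 2399 cells of cluster 0 fell in an own cluster in which 82.2% held an Xist UMI and 4.96% a Y-linked one, and 944 in another with 9.43% and 38.1%. Apoe was at 174 CPM in the larger set and 434 in the smaller, S100b at 61.1 and 123, and Aldoc at 219 and 501, while Thrsp was at 390 and 323 and Mxd4 at 178 and 155. Ttyh1 was at 62.9 CPM in cluster 0 cells with Y-linked UMIs and at 24.9 in those with Xist (2.53-fold), and Slc6a11 at 73.5 and 30.7 (2.40-fold). Whether these values follow sex or the single male culture of the pool cannot be told apart.

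A small own cluster at resolution 0.5 took 198 cells of cluster 0, 79.5% of its 249 cells. The values of 5 genes, picked after they were seen and known to be induced by low oxygen, stood apart in these 198 cells. Pdk1, which turns pyruvate away from mitochondria, was at 71.9 CPM against 2.72 in the 3590 cells of the main own cluster, Bnip3 at 238 against 14.2, Ero1l at 207 against 22.9, Vegfa at 61.6 against 9.75 and Higd1a at 1005 against 233. An Xist UMI was found in 4.55% of the 198 cells and a Y-linked one in 37.4%, beside 63.7% and 13.1% in the 3590. Thrsp stood at 342 and 367 in both sets, and Apoe at 418 and 218. The own clusters were made from these same genes, so the values are a description.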
